A study of Rattus norvegicus with 8 samples.

Results

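The 9 genes described here encode the enzymes that make prostaglandins, the receptors for prostaglandin E2 and the enzyme that inactivates it, in the kidneys of crystal-forming rats. They were chosen by gene symbol, though with earlier results of these data known. They are Ptgs1, Ptgs2, Ptges, Ptgds, Ptger1, Ptger2, Ptger3, Ptger4 and Hpgd. All 9 were measured, out of 18166 genes with a symbol of their own on the array. The tissue came from male Wistar rats aged 10 weeks, and RNA of each piece was hybridised to 1 Affymetrix whole-transcript array. The groups are kidney medulla and kidney cortex, with 4 arrays each, and every animal carries the same treatment label of ethylene glycol each day with vitamin D on alternate days for 1 week. The body turns ethylene glycol into oxalate, and the combination is used to form calcium oxalate crystals in rat kidney. No untreated group is labelled, so no effect of the treatment was measured, and the labels do not tie arrays to animals, and every p-value here reflects array-to-array spread that may be technical. Replicate numbers follow label order within a region and the labels do not say whether a shared number links a medulla array to a cortex array, so none were paired.

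Cyclooxygenases turn arachidonic acid, released from membranes by phospholipases, into the precursor from which terminal synthases make each prostaglandin. Prostaglandin E2, the main prostaglandin of the kidney, acts through 4 receptors that differ in their coupling, and it modulates salt and water transport, blood flow and renin release. The medulla is known as a site of high prostaglandin synthesis, with Ptgs1 (cyclooxygenase 1) in collecting duct cells and interstitial cells. Ptgs2 (cyclooxygenase 2) is known from the macula densa and nearby thick ascending limb of the cortex and from interstitial cells of the medulla.

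The promoters of Ptgs1, Ptgs2 and Hpgd are shown because the cyclooxygenases differed in their pattern over the arrays. Another reason is that, within each region, Ptgs2 and Hpgd shared the array on which each was highest. Each run holds the 250 bases before the start site, 5′ to 3′ on the strand of the gene, from RefSeq build GRCr8, in which all 9 genes matched by symbol. Capitals mark matches, on either strand, to any of 6 motifs searched: TATAAA (the TATA box), TGACTCA (AP-1), TGACG (part of the cAMP response element), CCAAT (the CCAAT box), GGGCGG (Sp1) and CACGTG (the E-box).
Ptgs1 (chr3:39981169-39981418, plus strand): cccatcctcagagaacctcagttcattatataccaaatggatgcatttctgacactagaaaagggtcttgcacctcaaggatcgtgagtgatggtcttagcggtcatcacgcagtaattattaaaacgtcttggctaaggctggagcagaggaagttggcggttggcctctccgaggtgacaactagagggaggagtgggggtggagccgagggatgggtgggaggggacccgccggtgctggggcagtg
Ptgs2 (chr13:64713813-64714062, plus strand): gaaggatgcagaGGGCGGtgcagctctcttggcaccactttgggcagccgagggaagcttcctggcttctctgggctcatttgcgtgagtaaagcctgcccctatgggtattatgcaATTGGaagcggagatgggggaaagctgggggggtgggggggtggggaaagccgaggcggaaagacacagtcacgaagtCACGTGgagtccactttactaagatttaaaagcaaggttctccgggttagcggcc
Hpgd (chr16:39034832-39035081, minus strand): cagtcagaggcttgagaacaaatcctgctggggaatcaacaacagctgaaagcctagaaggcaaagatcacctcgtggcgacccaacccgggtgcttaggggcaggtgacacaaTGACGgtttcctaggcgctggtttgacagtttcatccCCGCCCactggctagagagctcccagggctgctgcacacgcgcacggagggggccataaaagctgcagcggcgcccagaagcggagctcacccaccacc

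The Ptgs2 window held GGGCGG at position -238 from the start site, CCAAT on the opposite strand at -133 and CACGTG at -55. The Hpgd window held TGACG at -136 and GGGCGG on the opposite strand at -99. No match to the 6 motifs was found in the Ptgs1 window, nor in those of Ptger2 and Ptger4. No marked matches overlapped in the printed windows. Among 33469 promoter windows of the same length, 30.5% held GGGCGG, 34% CCAAT, 18.2% TGACG, 12.9% TATAAA, 5.59% CACGTG and 4.05% TGACTCA. The matches are a description of these letters only.

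Values are log2 of the deposited intensity, and array medians over all probe sets lay between 5.09 and 5.12. The region labels were checked on marker genes. The inner medulla list had 6 measured genes, among them the urea transporter gene Slc14a2. It averaged 7.72 to 8.53 on the medulla arrays and 6.90 to 7.67 on the cortex arrays, without overlap. Of its genes taken singly, Slc14a2 alone had regions that did not overlap, and Aqp1 differed by 0.015. The podocyte list of the glomerulus (5 measured genes) averaged 6.69 to 7.41 on the medulla arrays and 6.98 to 7.71 on the cortex arrays. These overlapped, with medulla replicate 2 at 7.41 and cortex replicate 1 at 6.98. The proximal tubule list (8 genes measured of 9) averaged 8.76 to 9.08 on the medulla arrays, with replicate 2 the highest. Cortex replicate 1 lay below all of these at 8.73, and the other cortex arrays lay above them at 9.23 to 9.67. Arrays of 1 region also differed from each other, most of all replicate 4 of each region, where the tubular injury list (10 genes) averaged 8.58 in medulla, with 6.39 to 7.60 on the other medulla arrays, and 8.23 in cortex, with 6.40 to 6.76 on the rest.

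Medulla was first compared with cortex. Ptgs1 showed the largest difference of the 9 genes, and Ptger1 and Ptger3, for receptors of prostaglandin E2, had smaller positive ones. None of the 9 passed the test over all genes. The test, limma with Benjamini-Hochberg adjustment, called 0 of 18166 genes (0% of those tested) at an adjusted p under 0.05 with a 2-fold difference. The smallest adjusted p over all genes was 0.875, and 971 genes (5.35%) had an unadjusted p under 0.05, among them Ptgs1 and no other of the 9. In 515 genes (2.83%) the regions did not overlap, and 0 of the 9 were among them.

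Ptgs1 measured 8.18, 6.97, 7.22 and 6.69 on medulla replicates 1 to 4, and 7.17, 6.28, 5.65 and 5.30 on cortex replicates 1 to 4. The regions overlapped through cortex replicate 1, which lay above medulla replicates 2 and 4, while the other cortex arrays were below every medulla array. The means were 7.26 ± 0.65 in medulla and 6.10 ± 0.82 in cortex (SD, n = 4 each), a difference of 1.16 ± 0.47 (SE) or 2.24-fold, with a 95% interval from 0.080 to 2.25. limma gave an unadjusted p of 0.0386 and an adjusted p of 0.875, and the two-sided exact permutation test gave 0.0857, where 0.0286 is the smallest value it can give. A 2-fold difference of means, with no test, was reached by 16 genes higher in medulla (0.0881%), Ptgs1 included, and by 0 lower. Leaving out medulla replicate 1 gave 0.86 and leaving out cortex replicate 4 gave 0.90, both under 2-fold, while leaving out cortex replicate 1 gave 1.52.

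In these bulk samples, fewer cells of a type and less RNA per cell cannot be told apart. The means of some marker lists moved over the arrays with Ptgs1. The mean of the interstitial fibroblast and pericyte list (8 genes measured of 9) followed another order. It averaged 7.12, 6.72, 7.39 and 7.46 on medulla replicates 1 to 4, highest where Ptgs1 was lowest. In cortex it averaged 7.05, 7.15, 6.46 and 6.69 on replicates 1 to 4. The inner medulla list was highest on medulla replicate 1 at 8.53, and within cortex on replicate 1 at 7.67, and it was lowest of all on cortex replicate 4 at 6.90. Of its 6 genes, 3 were highest on replicate 1 in both regions, namely Slc14a2, Slc14a1 and Akr1b1. Akr1b1 is also among the pathway genes described below. Slc6a6 went the other way in medulla, at 8.52 on replicate 1 and 9.20 on replicate 4, and Slc5a3 was highest on medulla replicate 3. The collecting duct principal cell list (8 genes measured of 8) averaged 8.32 on medulla replicate 1 and 7.06 to 8.03 on the other medulla arrays, and 7.05 to 7.78 on the cortex arrays, of which replicate 2 was highest. The endothelium list (5 genes measured of 7) was also highest on replicate 1 and lowest on replicate 4 in each region, at 7.71 and 7.19 in medulla and 7.57 and 6.73 in cortex, and its 5 genes had positive medulla minus cortex differences. Of these 5, Tek, Emcn and Plvap were highest on replicate 1 in both regions. Cdh5 measured 7.58, 7.38, 7.73 and 7.69 on medulla replicates 1 to 4. Vwf was level on medulla replicates 1 and 2, at 5.62. Whether each marker was above background was not tested, and the part of these cells in the Ptgs1 difference was not tested.

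Ptgs2, the inducible cyclooxygenase, did not follow Ptgs1. It measured 6.93, 6.65, 7.45 and 6.68 on medulla replicates 1 to 4, and 6.87, 6.70, 7.79 and 5.83 on cortex replicates 1 to 4. Replicate 3 was the highest array in each region, and the lowest value of all was on cortex replicate 4, with the medulla values lying inside the span of the cortex values. The difference was 0.13 ± 0.40 (SE), with a 95% interval from -0.79 to 1.05 and a limma adjusted p of 0.969. Its sign turned when an array was left out, to -0.043 for medulla replicate 3 and to -0.19 for cortex replicate 4. The thick ascending limb list, of the segment that holds the macula densa (8 genes measured of 9), averaged 8.44 to 9.32 on the medulla arrays and 7.93 to 9.21 on the cortex arrays, and its lowest value was on cortex replicate 4 as well. In 6 of these 8 markers, Slc12a1 and Umod among them, replicate 4 was the lowest array in both regions, beside 16% of all genes. Of the other 2, Cldn19 was highest on replicate 4 in both, at 9.16 in medulla and 7.99 in cortex, and Cldn16 was lowest there in cortex but measured 7.81 on medulla replicate 4, within its medulla values. Their part in the Ptgs2 value of that array was not tested.

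For the terminal synthases, the mean of medulla lay below that of cortex by less than the SE for Ptges and Ptgds. Ptges, the inducible prostaglandin E synthase, measured 6.12, 6.39, 6.09 and 6.11 on medulla replicates 1 to 4, and 5.91, 6.43, 6.47 and 6.31 on cortex replicates 1 to 4. The medulla values lay within the span of the cortex values, and the difference was -0.10 ± 0.13 (SE) with a 95% interval from -0.41 to 0.21. Leaving out an array put it between -0.23, without cortex replicate 1, and -0.038, without cortex replicate 3, and it was -0.17 without medulla replicate 2 and -0.051 without cortex replicate 2. Ptgds, the lipocalin-type prostaglandin D synthase, measured 6.01, 6.24, 5.83 and 6.23 on medulla replicates 1 to 4, and 6.04, 6.03, 6.03 and 7.35 on cortex replicates 1 to 4. Cortex replicate 4 was the 1 array that stood apart. The Ptgds difference was -0.28 ± 0.31 (SE), with a 95% interval from -1.0 to 0.44, and without cortex replicate 4 it was 0.049. limma's adjusted p was 0.939 for Ptges and 0.918 for Ptgds.

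**Figure D1:**
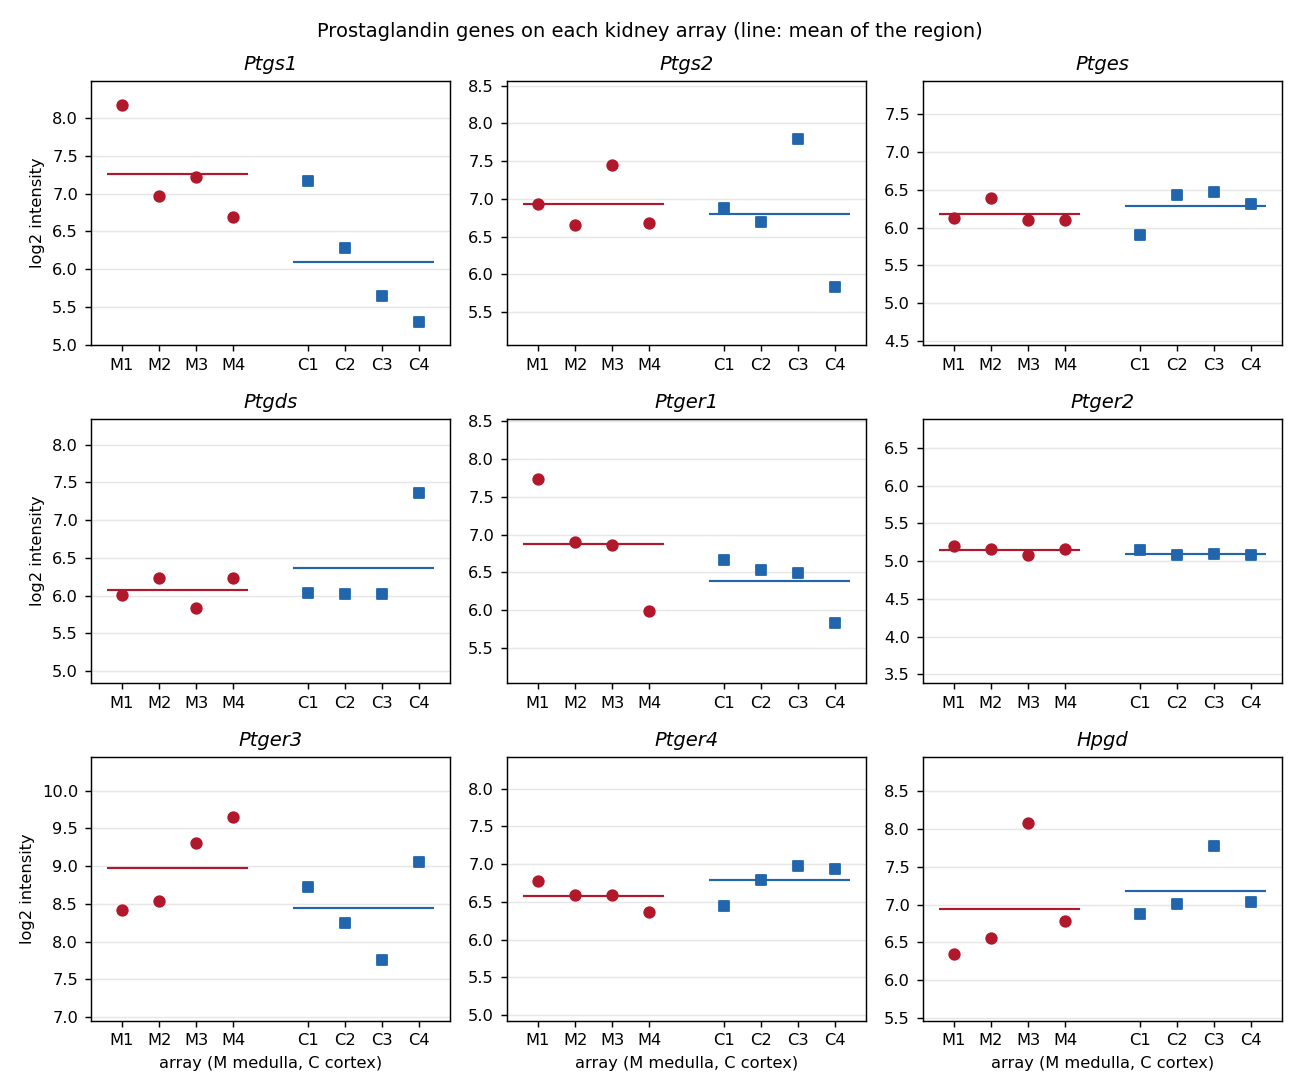
Log2 intensity of the 9 prostaglandin genes on each array, with medulla arrays M1 to M4 as red circles, cortex arrays C1 to C4 as blue squares and a line at the mean of each region, and every panel spans 3.5 log2 units. Ptgs1 is highest on M1 at 8.18 and lowest on C4 at 5.30, Ptgds stands apart on C4 at 7.35, and Ptger2 is nearly flat at 5.08 to 5.19.

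Of the 4 receptors of prostaglandin E2, Ptger1 and Ptger3 had the wider ranges over the arrays. Ptger1 encodes the receptor that signals through calcium and is known from the collecting duct. It measured 7.74, 6.90, 6.86 and 5.98 on medulla replicates 1 to 4, and 6.66, 6.53, 6.50 and 5.83 on cortex replicates 1 to 4. Medulla replicates 1, 2 and 3 lay above all cortex arrays, and medulla replicate 4 lay below all but cortex replicate 4. The difference was 0.49 ± 0.36 (SE), with a 95% interval from -0.35 to 1.33 and a limma adjusted p of 0.878. Leaving out medulla replicate 1 gave 0.20, leaving out cortex replicate 4 gave 0.31, and leaving out medulla replicate 4 gave 0.79.

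Ptger3 encodes the receptor that lowers cyclic AMP and is known from the thick ascending limb and the collecting duct. It measured 8.42, 8.54, 9.31 and 9.65 on medulla replicates 1 to 4, and 8.73, 8.25, 7.76 and 9.06 on cortex replicates 1 to 4. Replicate 4 was the highest array in both regions, and cortex replicate 3 was the lowest of all while medulla replicate 3 was the second highest. The difference was 0.53 ± 0.37 (SE), with a 95% interval from -0.32 to 1.38 and a limma adjusted p of 0.878. Leaving out medulla replicate 4 gave 0.31, and leaving out cortex replicate 3 gave 0.30.

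Ptger2 and Ptger4 encode the receptors that raise cyclic AMP. Ptger2 lay between 5.08 and 5.19 on the medulla arrays and between 5.08 and 5.14 on the cortex arrays, about the median of all probe sets. Whether its signal was above background was not tested, so the narrow span says nothing of how steady the gene is. Its 2 probe sets held the same value on every array, so they are 1 measurement, and the difference was 0.051 ± 0.036 (SE) with a 95% interval from -0.034 to 0.14. Ptger4 measured 6.78, 6.60, 6.59 and 6.37 on medulla replicates 1 to 4, and 6.44, 6.78, 6.98 and 6.94 on cortex replicates 1 to 4. Cortex replicate 1 lay among the medulla values and the other cortex arrays lay at or above the highest of them, with a difference of -0.20 ± 0.13 (SE), a 95% interval from -0.52 to 0.11 and a limma adjusted p of 0.877. Ptger4 stood at -0.32 without cortex replicate 1, and at -0.13 without medulla replicate 4.

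Hpgd encodes hydroxyprostaglandin dehydrogenase, which inactivates prostaglandins. It measured 6.34, 6.56, 8.08 and 6.78 on medulla replicates 1 to 4, and 6.87, 7.01, 7.77 and 7.04 on cortex replicates 1 to 4. Replicate 3 was the highest array in both regions, and outside it every cortex array lay above the other medulla arrays. The difference was -0.24 ± 0.39 (SE), with a 95% interval from -1.15 to 0.68 and a limma adjusted p of 0.952. Without medulla replicate 3 it was -0.62, without medulla replicate 1 it was -0.037, and without cortex replicate 3 it was -0.035.

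**Figure D2:**
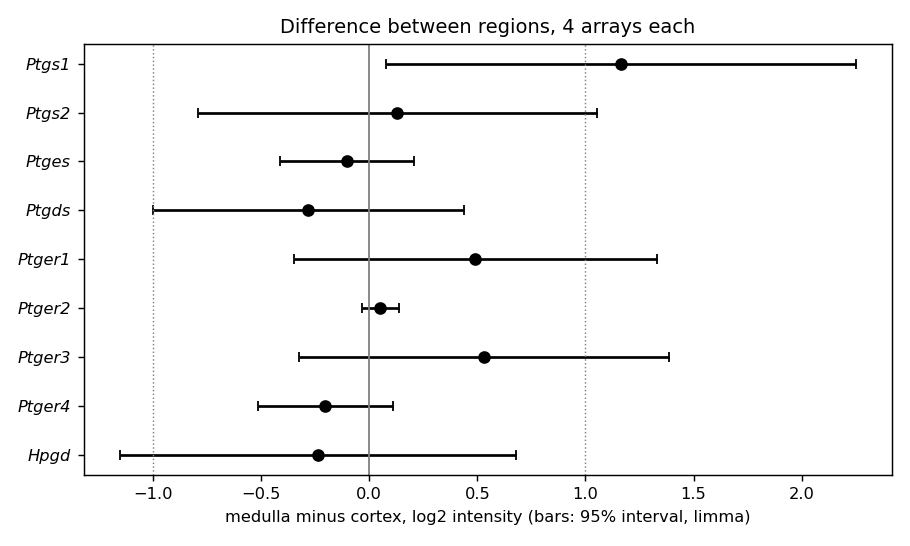
Medulla minus cortex difference in log2 intensity of the 9 genes, as points with 95% limma intervals, and dotted lines at a 2-fold difference. The interval of Ptgs1, from 0.080 to 2.25, is the 1 that leaves out 0, before adjustment over all genes.

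The spread between arrays of 1 region was described next, since the study picked genes that varied 2-fold in an analysis of each region and kept those shared by both analyses, without naming the arrays set against each other. The range, the highest minus the lowest log2 value of the 4 arrays, reached 2-fold in 4 of the 9 genes in medulla, namely Ptgs1, Ptger1, Ptger3 and Hpgd, and in 4 in cortex, namely Ptgs1, Ptgs2, Ptgds and Ptger3. Ptgs1 and Ptger3 reached it in both regions. Over all genes the range reached 2-fold in 3.8% in medulla, 3.6% in cortex and 2.21% in both. The median range of the 9 genes was 0.80 in medulla and 0.90 in cortex, against 0.25 and 0.21 over all genes. All genes here include dim ones and were not matched to the 9 by signal level. The part of signal level in these contrasts was not tested.

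Single arrays set several of these ranges. Ptgs1 ranged over 2.80-fold in medulla and 3.66-fold in cortex, and its log2 range was 0.52 without medulla replicate 1, against 1.48 with it, and 0.97 without cortex replicate 1, against 1.87 with it. Ptger3 ranged over 2.34-fold in medulla and 2.46-fold in cortex, and its log2 range was 0.89 without medulla replicate 4, and 0.81 without cortex replicate 3 or 0.97 without cortex replicate 4. Ptgs2 ranged over 1.74-fold in medulla and 3.90-fold in cortex, and the cortex log2 range of 1.96 was 1.05 without replicate 3 and 1.10 without replicate 4. The cortex range of Ptgds, 1.33, was 0.010 without replicate 4. The medulla range of Ptger1, 1.75, was 0.92 without replicate 1 and 0.87 without replicate 4, and that of Hpgd, 1.74, was 0.44 without replicate 3. Ptges, Ptger2 and Ptger4 ranged over at most 1.33-fold in medulla and 1.48-fold in cortex. Without replicate 4 of either region, an alternative added once the data had been seen, 2 of the 9 genes reached a 2-fold range in medulla, 2 in cortex and 1, Ptgs1, in both, beside 0.936%, 0.798% and 0.248% of all genes.

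**Figure D3:**
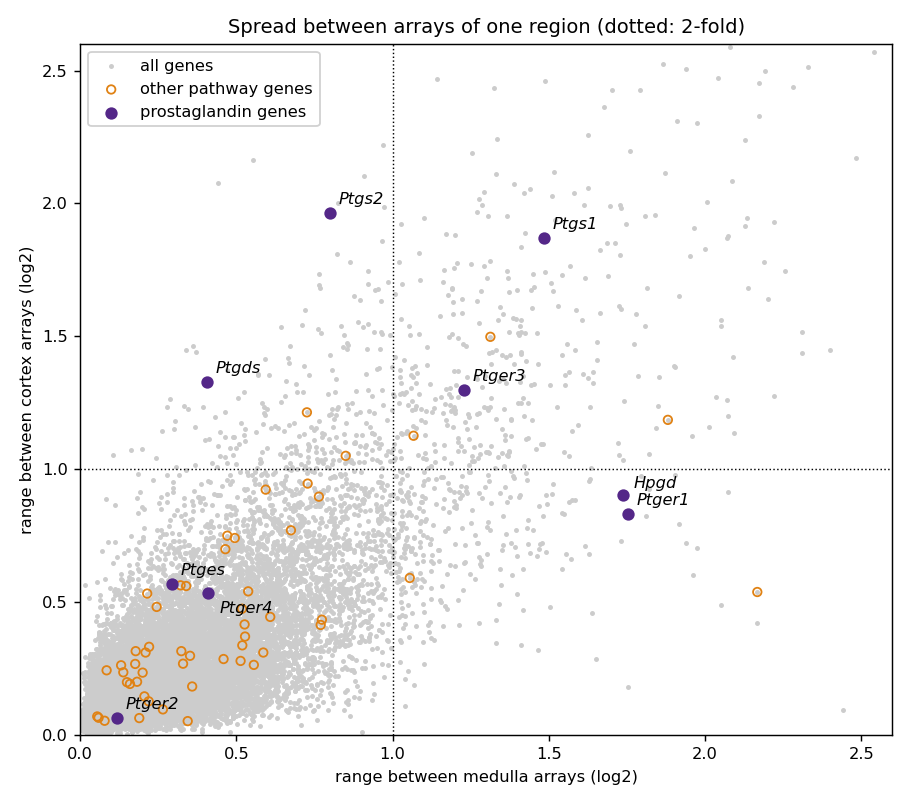
Range between the 4 medulla arrays against range between the 4 cortex arrays, in log2 units, for the 9 prostaglandin genes (purple), other genes of the pathway (orange rings) and all genes (grey), with dotted lines at 2-fold and 46 genes beyond the axes not drawn. Ptgs1 and Ptger3 lie past 2-fold in both regions, Hpgd and Ptger1 in medulla alone, and Ptgs2 and Ptgds in cortex alone.

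The order of the arrays differed between the genes. A replicate number shared by the regions is used here only to describe that order. Ptgs1 and Ptger1 were highest on replicate 1 and lowest on replicate 4 in both regions, which 2.77% of all genes shared. Ptgs2 and Hpgd were highest on replicate 3 in both regions, as were 5.11% of all genes. Ptger3 was highest on replicate 4 in both, as were 17% of all genes. Ptger2, within its narrow span, was highest on replicate 1 in both regions. Ptgds was lowest on replicate 3 in medulla, and in cortex replicates 2 and 3 were level at 6.03, with replicate 1 at 6.04. In Ptges and Ptger4 neither the highest nor the lowest array had the same number in both regions. Replicate 4 was the highest array of both regions in 8 of the 10 tubular injury markers, Havcr1 and Clu among them. The macrophage and leukocyte list (10 genes) averaged 6.59 on medulla replicate 4 and 5.85 to 6.38 on the other medulla arrays, and in cortex it was 5.95 on replicate 4 and 5.60 to 6.15 on replicates 1 to 3. On cortex replicate 3, where Ptger3 was lowest, this list was at its lowest too, at 5.60. Its markers split, with 3 of the 10 highest on replicate 4 in both regions. Itgam and Cd3e were lowest in cortex on replicate 1, and Cd4 and Mrc1 on replicate 4. The interstitial fibroblast and pericyte list was also lowest on cortex replicate 3, at 6.46, and highest on medulla replicate 4, at 7.46. In 4 of the 8 collecting duct markers, Aqp2, Aqp3, Avpr2 and Fxyd4, replicate 1 was the highest and replicate 4 the lowest array in both regions, as for Ptgs1 and Ptger1. The other 4 differed: Scnn1b, Scnn1g and Gata3 were lowest in cortex on replicate 1, and Hsd11b2 was highest on medulla replicate 2 and cortex replicate 3. The part of these cells and of injury in the patterns was not tested.

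**Figure D4:**
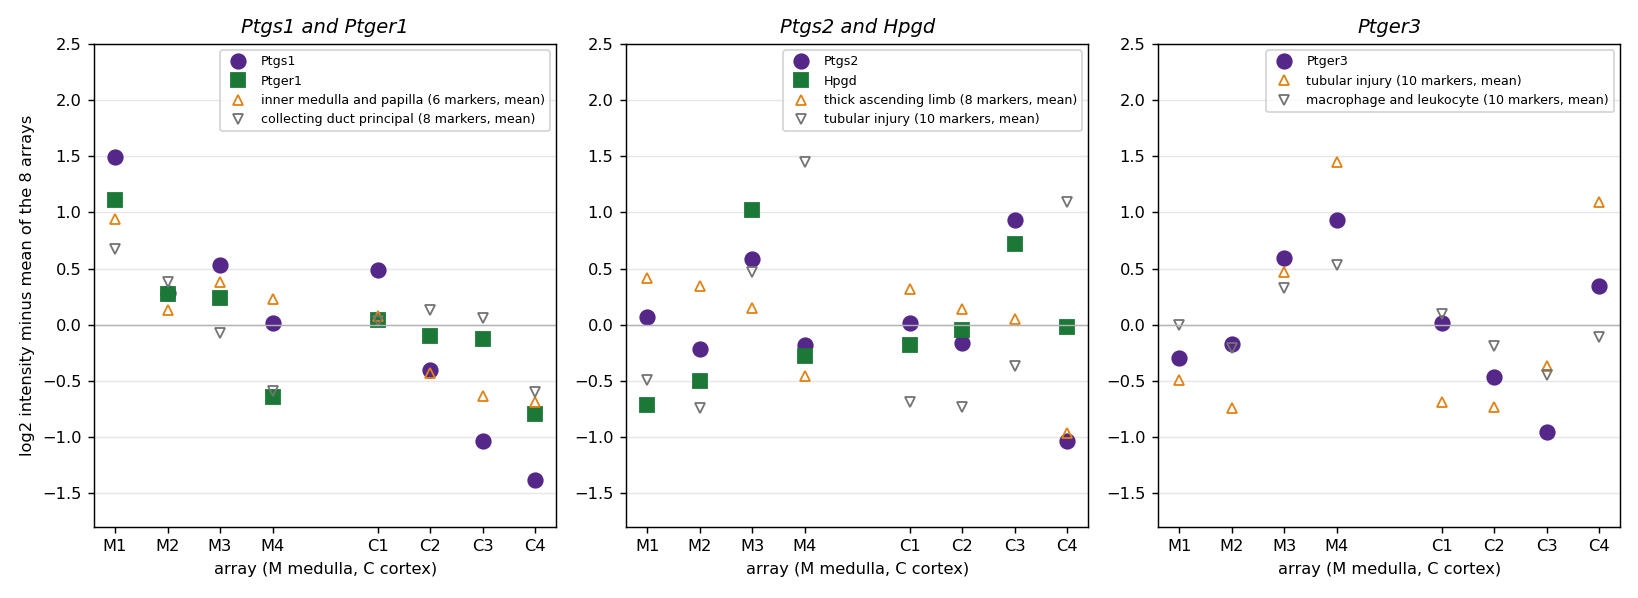
Log2 intensity minus the mean of the 8 arrays, for prostaglandin genes (filled symbols) and for the mean of marker lists (open triangles), on medulla arrays M1 to M4 and cortex arrays C1 to C4. Ptgs1 and Ptger1 are highest on M1 with the inner medulla and collecting duct lists, Ptgs2 and Hpgd stand high on M3 and C3, and Ptger3 is highest on M4 with the injury list.

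The genes most like each variable member were found by the root mean square difference over the 8 arrays, after each gene was centred on its own mean, among the 1248 other genes with at least a 2-fold range over all arrays. Ptgs1, with a root mean square deviation of 0.86 about its mean, was closest to the transporter gene Slc4a11 at 0.13 and the urea transporter gene Slc14a1 at 0.22, followed by Hacd4 at 0.27 and Snhg11 at 0.28. Ptger1, at 0.55 about its mean, was closest to Lrrc31 at 0.096, Rnf186 at 0.15, the aquaporin gene Aqp6 at 0.16 and Tmem45b at 0.16. Ptger3, at 0.57, was closest to Nampt, an enzyme gene of NAD synthesis, at 0.21, the complement gene C5 at 0.22, the hyaluronan receptor gene Cd44 at 0.22 and Slfn9 at 0.23. Ptgds, at 0.45, was closest to Ism1 at 0.11, Tmem120a at 0.13, Plcxd2 at 0.17 and Cdc42ep1 at 0.18. For Ptgs2, at 0.55, the closest genes were farther away, with Mmd at 0.29, the zinc transporter gene Slc39a8 at 0.32, Zfp354a at 0.33 and Acp3 at 0.34. Hpgd, at 0.55, was closest to Lztfl1 at 0.22, Ppp1r16b at 0.26, the bile acid transporter gene Slc10a1 at 0.28 and Tmigd1 at 0.30. The likeness is a description over 8 arrays.

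Other genes of the pathway were taken from 6 lists, with 53 of 58 measured. None of the 53 was called over all genes by limma, whose smallest adjusted p was 0.875. Of these, 29 had a positive and 24 a negative medulla minus cortex difference, where 45.8% of all genes were above 0, and the median difference was 0.0086, against -0.0071 over all genes. A 2-fold range was reached by 5 in medulla, 5 in cortex and 3 in both, namely Anxa1, Egr1 and Fos, beside the 3.8%, 3.6% and 2.21% of all genes given above.

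Among genes that release arachidonic acid or regulate its release (9 measured of 10), 3 differences were positive and 6 negative. Pla2g4a, the cytosolic phospholipase A2 that frees arachidonic acid, measured 6.93, 6.36, 7.20 and 6.65 on medulla replicates 1 to 4, and 6.81, 6.16, 5.90 and 5.76 on cortex replicates 1 to 4. Only cortex replicate 1 reached into the medulla values, as for Ptgs1, and the difference was 0.63 ± 0.26 (SE), with a limma adjusted p of 0.875. Anxa1, known as an inhibitor of phospholipase A2, measured 7.65, 7.02, 8.28 and 8.91 on medulla replicates 1 to 4, and 7.23, 7.01, 7.07 and 8.20 on cortex replicates 1 to 4. Its highest value in each region was on replicate 4, as for Ptger3.

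Among the other prostanoid synthases (8 of 8 measured), 5 differences were positive and 3 negative. Ptges2, a second prostaglandin E synthase, measured 5.64, 5.86, 5.73 and 5.71 on medulla replicates 1 to 4, and 5.91, 5.96, 6.04 and 5.93 on cortex replicates 1 to 4. The regions did not overlap, the difference was -0.22 ± 0.054 (SE), and limma's adjusted p was 0.875. Akr1b1, the aldose reductase that in human can also make prostaglandin F, differed by 1.15 ± 0.43 (SE) and was highest on medulla replicate 1 at 8.85. The other prostanoid receptors (6 of 7 measured, 3 positive and 3 negative) stayed within a 2-fold range in both regions. The thromboxane receptor gene Tbxa2r differed by -0.095 ± 0.068 (SE) and the nuclear receptor gene Pparg by 0.14 ± 0.13.

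Genes of prostaglandin transport and breakdown (7 of 9 measured) had 4 positive and 3 negative differences. The organic anion transporter genes Slc22a8 and Slc22a6, which also belong to the proximal tubule list, had the largest of them, at -0.59 ± 0.22 and -0.49 ± 0.26 (SE). The lipoxygenase branch, which leads to leukotrienes (8 of 8 measured, 5 positive and 3 negative), had no gene with a 2-fold range in either region. Its largest differences were 0.13 ± 0.14 (SE) for Alox5ap and 0.11 ± 0.085 for Alox5. Among cytokines, receptors and transcription factors known to induce Ptgs2, a list that also holds the NF-kB inhibitor gene Nfkbia (15 of 16 measured, 9 positive and 6 negative), Nfat5, the factor of the hypertonic response, differed by 0.78 ± 0.24 (SE) and the interleukin receptor gene Il1r1 by 0.37 ± 0.16. Egr1 measured 7.36, 7.30, 8.07 and 8.61 on medulla replicates 1 to 4, and 8.76, 7.26, 7.46 and 8.46 on cortex replicates 1 to 4. Fos measured 5.95, 5.43, 6.44 and 6.49 on medulla replicates 1 to 4, and 6.46, 5.79, 5.33 and 6.10 on cortex replicates 1 to 4. Neither early gene was highest on the replicate 3 arrays that were highest for Ptgs2.

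**Figure D5:**
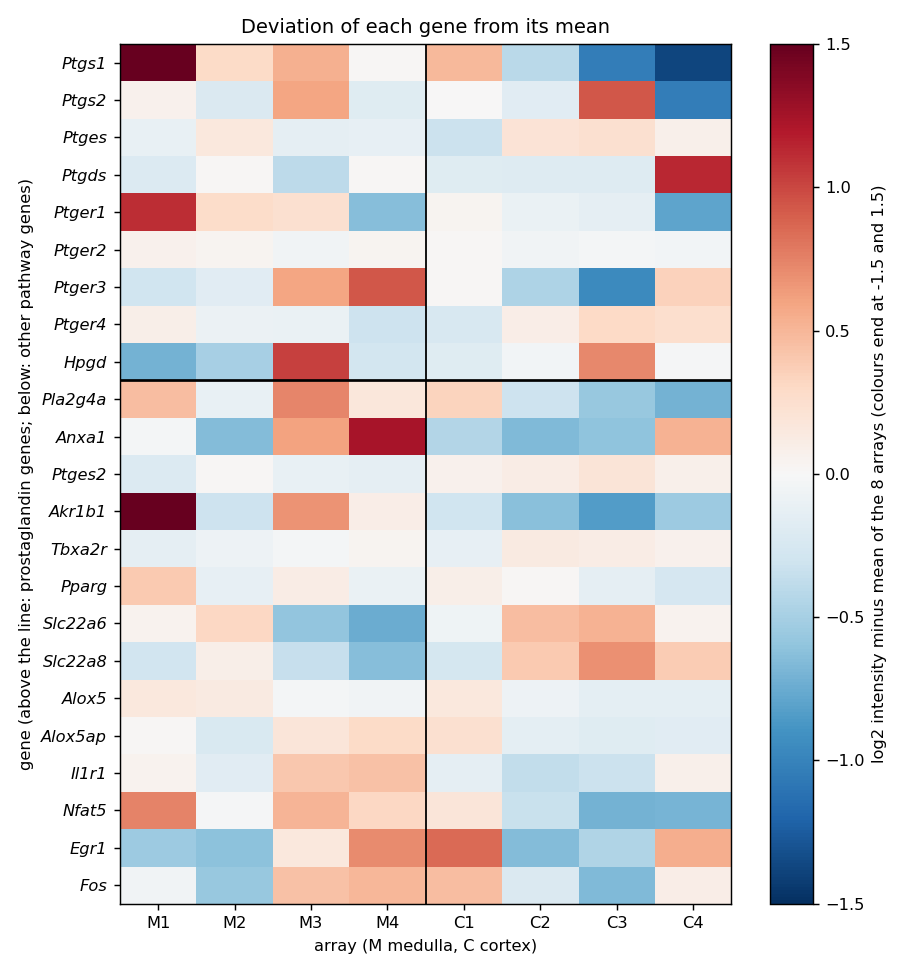
Log2 intensity minus the mean of the 8 arrays for the 9 prostaglandin genes (above the line) and 14 other genes of the pathway (below it), on medulla arrays M1 to M4 and cortex arrays C1 to C4, with colours ending 1.5 log2 units from the mean. Ptgs1, Ptger1, Akr1b1 and Nfat5 are highest on M1, and Ptger3 and Anxa1 are highest on M4.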

How the data were processed

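Kidney RNA was converted to biotin-labelled DNA for hybridisation, per the labels' protocols. Each of the 8 arrays has 1 column of intensity per probe set in the table the authors deposited. Expression Console of Affymetrix and the RMA method are named in the submitters' processing notes, without a version. Among all probe sets the deposited intensity values ran from 17.3 to 6229 and their quartiles nearly coincided between arrays. They were therefore taken as linear and normalized by the authors, and converted to log2 with no pseudocount. Detection calls were not used here. With 8 arrays, their number sets the precision.

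Of 29870 probe sets, 18511 had 1 symbol, 575 several and 10784 none here. Entrez identifiers linked 18394 of them to RefSeq GRCr8, and 0 symbols changed. The probe set with the highest mean was kept per gene, and no dim gene was left out. Medulla was compared with cortex over all genes by lmFit and eBayes of limma 3.58.1 (R 4.3.3), on all 8 arrays with no covariate. Exact permutation tests used scipy 1.17.1. The pipeline was tested on simulated data. The members and lists were chosen with earlier results of these data known. All 9 members are named, with, per pathway list, genes of a 2-fold range in both regions and the 2 of largest difference, and the 4 closest genes per variable member. The alternatives are given with the closing results.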

Additional observations from a re-analysis of the deposited data

Results flagged for a closer look

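Of 46 groups of 4 arrays checked, for the 9 genes and 14 others of the pathway in each region, 3 had an array whose gap to its nearest neighbour exceeded 0.829 of the group's range, and chance gives about 1 in 20. Ptgds measured 7.35 on cortex replicate 4, where the other cortex arrays lay at 6.03 to 6.04, and this gap was 0.99 of the range. Ptges measured 6.39 on medulla replicate 2 and 6.09 to 6.12 on the other medulla arrays, a gap of 0.91 of a range of 0.29 log2 units. Alox5ap, for the activating protein of the leukotriene pathway, measured 6.12 on cortex replicate 1 and 5.71 to 5.74 on the other cortex arrays, a gap of 0.92 of the range.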

How the results depend on the processing

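Normalization (quantile, or centring on array medians), averaging of probe sets, a filter that drops the dimmest 30% of genes, single arrays left out, a trended robust prior, array weights and the thresholds were varied. limma called 0 genes under each, also by the adjusted p alone, and 16 genes had a 2-fold difference with no test. The smallest limma adjusted p over all genes, 0.875 in the main fit, was 0.0995 without medulla replicate 2. It was 0.467 without cortex replicate 1, 0.576 with array weights, and 0.798 or more in the other fits. The prior and the probe set average cannot move a member's difference. Of 108 differences recomputed under the other settings, 103 kept their direction and 5 did not. Ptgs2 lay between -0.19 and 0.46 with single arrays left out, at -0.054 with array weights and at -0.11 without both replicate 4 arrays, and Ptgds between -0.39 and 0.049 with single arrays left out. For the other 7 genes the direction held in every setting run. The count of all genes with a 2-fold range was 691 in medulla, 654 in cortex and 402 in both. It lay between 170 and 622, 145 and 613, and 84 and 379 with single arrays left out, the low ends without replicate 4 of the region (for both regions, 92 without medulla replicate 4 and 84 without cortex replicate 4), and was 170, 145 and 45 without both replicate 4 arrays. At 1.5-fold it was 2738, 2063 and 1475, and at 3-fold 157, 186 and 96. Of the 9 genes, 2 to 4 reached 2-fold in medulla, 2 to 4 in cortex and 1 to 2 in both with single arrays left out. The medulla count was 2 without medulla replicate 1 or 4, the cortex count 2 without cortex replicate 4, and the shared count 1 without any 1 of these arrays and without cortex replicate 1 or 3. The counts were 2, 2 and 1 without both replicate 4 arrays. At 1.5-fold 5 passed in both regions, and at 3-fold 2 in medulla, 2 in cortex and 0 in both. The cause of these changes was not tested beyond which arrays were left out or which threshold was set. The 4 arrays of each region limit what could be detected. The unadjusted intervals of the 9 genes show the precision of each difference, not what could be detected after adjustment over all genes. For the other pathway genes named with a difference, the SE alone is given.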
